A study of Solanum lycopersicum with 86 samples.

Results

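First internodes of the tomato cultivar Moneymaker (wild type) that had spent 48 h under added far-red light (FR) were compared with internodes that had spent 24 h under it. Both harvests fall at the same hour of the day, 1 day apart. Groups were taken from the sample titles, which gave 6 libraries at 48 h and 5 at 24 h, 11 of the 86 libraries of the series. The plants were germinated for 1 week and then potted and grown for 1 more week in white light, at 20 °C and 70% humidity with 16 h of light and 8 h of dark per day. FR plants then received 200 PAR of white light (PAR is photosynthetically active radiation) with extra far-red that brought the ratio of red to far-red to 0.21. White light (WL) plants received the same 200 PAR without it. For comparison, the same step from 24 to 48 h was read in Moneymaker WL internodes (4 libraries against 3), in M82 FR internodes (3 against 2) and in M82 WL internodes (4 against 2), M82 being the second wild-type cultivar. The step from 6 to 30 h in Moneymaker FR internodes (3 against 5) is another pair of harvests at equal hours. A treatment field gives FR for the Moneymaker WL samples, and their titles and sample codes, which give WL, were followed. Separate plants are implied by the label of biological replicate. The internode was sampled whole, so fewer cells of a type and less RNA per cell cannot be told apart.

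Plants read a low ratio of red to far-red light as the sign of a neighbour. Far-red light turns phytochrome B to its inactive form, which frees PIF transcription factors, and growth hormones such as auxin, gibberellin and brassinosteroid then drive stem elongation. Many stem transcripts also follow the circadian clock, and a comparison of equal hours holds the clock phase alike and leaves the duration of far-red and the age of the plant to differ.

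The deposited table lists 23050 genes by Solyc identifier with no name or description, and 0 of them matched the reference gene table. Genes are therefore given by identifier, at most 2 per direction, and no role is assigned to any of them. Markers of cell types could not be read for the same reason.

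The libraries held between 0.769 and 22.1 M reads in listed genes over the series, with a median of 2.98 M. At 24 h the range was 2.76 to 8.02 M and at 48 h 1.06 to 22.1 M, with replicate 3 lowest and replicate 4 highest. At an equal depth of 1 M reads, 17611 to 19288 genes were expected at 24 h and 17772 to 19602 at 48 h. Replicates 3 and 6 gave the fewest at 24 h, with 17611 and 17903. Values in the table are scaled read counts, and a level below is either such a value or its log2 after adding 1. Each label was checked with 20 genes that mark each cultivar and 50 genes per direction that mark the clock phase, chosen in the libraries outside the comparison. None of the 11 libraries went against its cultivar or clock label, while 11 libraries elsewhere in the series did. Among these were 2 of the 4 Moneymaker WL libraries at 48 h, replicate 3 by cultivar and replicate 1 by clock, and 1 of the 2 M82 WL libraries at 24 h, replicate 1 by cultivar. Of the 3 M82 FR libraries at 48 h, replicates 2 and 4 carried Moneymaker markers at 39.5% and 45.6% of the Moneymaker level, as did replicate 2 of M82 WL at 48 h at 31.4%, so the M82 values below rest partly on such libraries.

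Replicates 7 and 8 at 48 h nevertheless stood apart. Their M82 marker genes reached 26.8% and 36.4% of the level in M82 internodes, and 18 and 20 of the 20 markers had a value of at least 1. In the other 9 libraries the M82 markers were at 0.728 to 5.11% of that level, with 1 to 6 markers at a value of 1 or more. The Moneymaker markers of replicates 7 and 8 were at 94.98% and 86.7% of their usual level, inside the range of 73.8 to 152% in the other 9. Both libraries thus carried transcripts of both cultivars' marker genes. Their sample codes have another form than those of the other 9, a form shared by Moneymaker WL 48 h replicates 7 and 8. In those WL libraries the M82 markers were at 2.07% and 2.80%. Chi-square per degree of freedom between the reads of FR replicates 7 and 8 was 2.00. This was the lowest of the pairs within the FR groups compared, where the others gave 6.53 to 104. The 2 libraries differed by more than counting error, which cannot tell separate plants from separate preparations of shared material. They were kept as separate samples, as labelled. If they share material, the 48 h group holds fewer independent samples than its 6 libraries. The changes of the called genes, the named genes and the far-red lists are given with and without this pair, called the mixed libraries below. Other results include the pair unless stated.

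**Figure D1:**
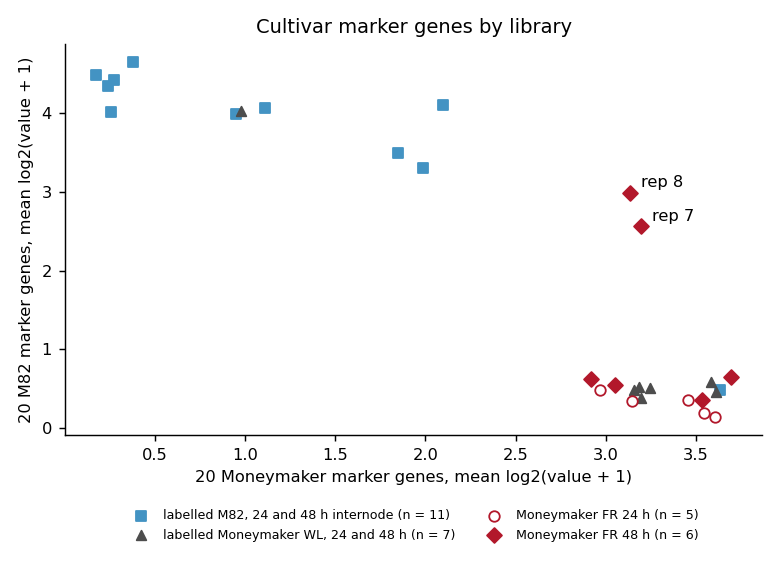
Mean log2(value + 1) of 20 M82 marker genes (vertical axis) against that of 20 Moneymaker marker genes (horizontal axis), 1 point per internode library at 24 or 48 h. The 2 FR 48 h libraries marked rep 7 and rep 8 lie high on both axes, while the other 9 FR libraries lie low on the M82 axis; 1 square among the Moneymaker libraries and 1 triangle among the M82 libraries go against their labels.

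Few genes passed the test between 24 and 48 h of far-red, and nearly all of them fell. Limma on log2(value + 1), with Benjamini-Hochberg adjustment over 19029 genes, called 14 genes lower and 1 gene higher at 48 h (adjusted p below 0.05). That is 15 genes, or 0.0788% of those tested, with 0.0736% lower and 0.00526% higher. Of the fallers, 9 fell by at least 2-fold. Below the adjusted threshold the directions were even: 731 genes (3.84%) were lower and 791 (4.16%) higher at an unadjusted p below 0.05, 1522 in all, where 951 would be 0.05 of the genes tested. The median log2 fold change over all genes was 0.03 and the median SE 0.33. Without the mixed libraries limma called 0 genes, with 1273 at an unadjusted p below 0.05 (3.37% lower and 3.32% higher), and the 15 genes all kept their sign. With the mixed libraries kept, edgeR called 23 genes and DESeq2 89, and both lists held the 15. Leaving out the 24 h libraries with fewest genes, replicates 3 and 6, also ended every call, with 601 genes at an unadjusted p below 0.05. The 3 called genes named below then had log2 fold changes of -0.96 ± 0.21, -1.09 ± 0.29 and 1.12 ± 0.31, in the order in which they are described. With the replicate number as a block 19 genes were called, 10 of the 15 among them, and a fit of the 11 libraries alone called 0 (1764 genes at an unadjusted p below 0.05).

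Calls came from abundant genes. In 5 equal bins of the tested genes by mean level, from lowest to highest, 0, 0, 1, 2 and 12 genes were called. In the highest bin 307 genes were lower and 191 higher at an unadjusted p below 0.05, and in the lowest bin 41 were lower and 114 higher. The median log2 fold change went from 0.10 in the lowest bin to -0.01 in the highest.

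**Figure D2:**
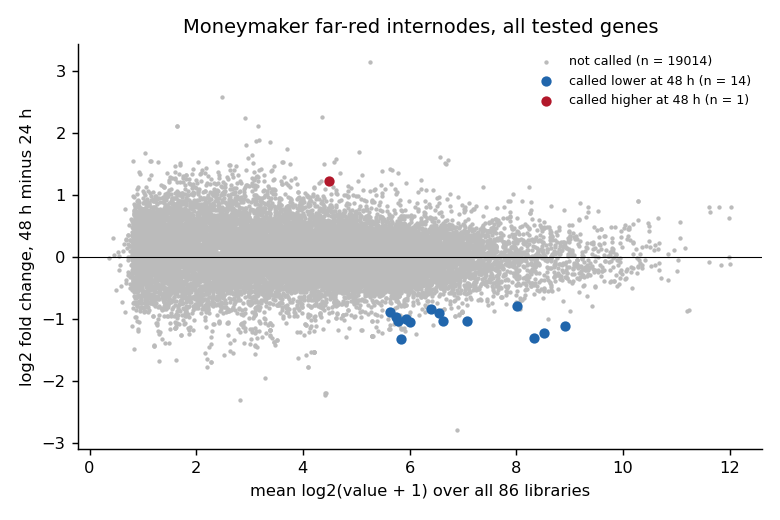
Log2 fold change (48 h minus 24 h, vertical axis) against mean log2(value + 1) over all 86 libraries (horizontal axis) for each of the 19029 tested genes in Moneymaker FR internodes. The 14 genes called lower lie at mean levels of 5.64 to 8.91, and the 1 gene called higher lies below them at a mean level under 5.

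The gene of smallest p was Solyc03g117480. Its values at 24 h were 158, 206, 191, 160 and 182 in replicates 1, 3, 4, 5 and 6. At 48 h the lowest was 66.6, the median 84.8 and the highest 127.6, in replicate 5. Every 48 h library lay below every 24 h library, and the mixed libraries, at 70.3 and 79.3, lay inside the range of the other 4. The log2 fold change was -1.04 ± 0.18 (SE, limma adjusted p = 0.0041). Without the mixed libraries it was -0.94 ± 0.20 (limma adjusted p = 0.085). Under WL the values were 140 to 162 at 24 h and 112 to 174 at 48 h, with a change of -0.10 ± 0.23.

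Solyc01g111420 fell most among the called genes. At 24 h its values were 56.7, 136, 77.9, 109 and 107 in replicates 1, 3, 4, 5 and 6, and at 48 h they ran from 28.2 to 45.8 with a median of 36.9. The groups did not overlap, and the 24 h library nearest to the 48 h range was replicate 1. The log2 fold change was -1.33 ± 0.25 (limma adjusted p = 0.0081), or 2.52-fold lower, and -1.36 ± 0.28 without the mixed libraries (limma adjusted p = 0.085). Without replicate 3 at 24 h it was -1.20 ± 0.27 (limma adjusted p = 0.10). Under WL this gene had values of 28.8 to 43.2 at 24 h and 50.7 to 83.2 at 48 h. The change of 0.72 ± 0.32, in the other direction, did not pass the test. The 83.2 came from replicate 3, the library against its cultivar label. With label-contrary libraries left out, the largest WL change of any faller was 0.55. The difference between the FR and WL changes was -2.06 ± 0.41 (limma adjusted p = 0.054), the smallest adjusted p over all genes in that test. That difference includes the label-contrary WL libraries.

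Solyc10g086640 was the gene that rose. Its values were 9.19, 7.18, 4.23, 8.69 and 4.65 at 24 h in replicates 1, 3, 4, 5 and 6, and 12.2 to 23.2 at 48 h with a median of 17.1. Every 48 h library lay above every 24 h library. The log2 fold change was 1.22 ± 0.26 (limma adjusted p = 0.022). It was 1.13 ± 0.29 without the mixed libraries (limma adjusted p = 0.133) and 1.16 ± 0.28 with the replicate number as a block (limma adjusted p = 0.067). It was also not called without 24 h replicate 3, 4 or 6 or without 48 h replicate 3 or 8 (limma adjusted p from 0.076 to 0.17). Under WL it had values of 10.9 to 15.2 at 24 h and 14.2 to 33.3 at 48 h, or 14.2 to 20.9 without replicate 1, the library against its clock label. In M82 under FR its change was -1.15. At 6 and 30 h of FR the same gene had values of 26.2 to 41.1 and 29.1 to 31.6, above both groups compared.

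Solyc03g096780 had the next smallest p among higher genes and did not pass. Its values were 20.45 to 56.8 at 24 h and 48.5 to 114 at 48 h. One 24 h library, replicate 5, reached into the 48 h range, above the lowest 48 h libraries. The log2 fold change was 1.40 ± 0.34 (limma adjusted p = 0.059), and 1.57 ± 0.37 without the mixed libraries (limma adjusted p = 0.088). Without 24 h replicate 5 it was 1.63 ± 0.35 and passed (limma adjusted p = 0.027), as it did without 48 h replicate 7 (1.54 ± 0.35, limma adjusted p = 0.038).

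**Figure D3:**
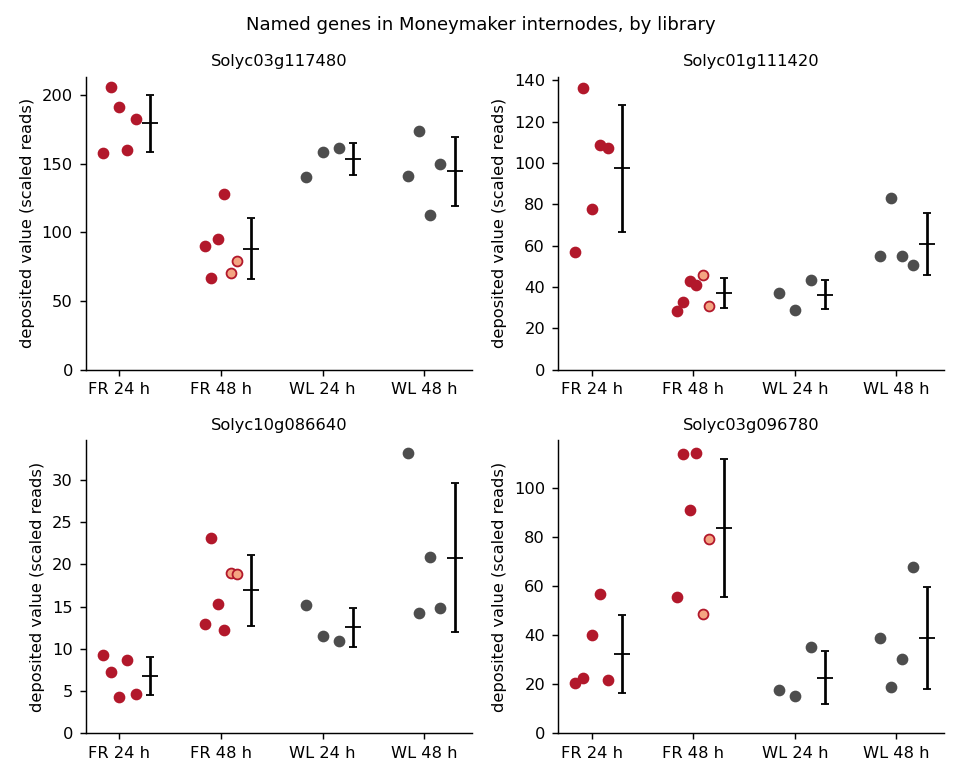
Deposited value (scaled reads, vertical axis) of the 4 named genes in each Moneymaker internode library at 24 and 48 h, FR in red and WL in grey, pale points being the mixed libraries and bars the mean ± SD. Solyc03g117480 and Solyc01g111420 are lower at FR 48 h than in every FR 24 h library, Solyc10g086640 is higher, and Solyc03g096780 overlaps.

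Together the 14 fallers changed by -1.33 to -0.80 on the log2 scale, 1.74 to 2.52-fold, with a median of -1.04. For 11 of them, and for the gene that rose, the 2 groups did not overlap. Over all genes tested 0.72% did not overlap and were lower at 48 h, 0.441% were higher, and 1.16% did either. Without the mixed libraries the fallers had a median of -1.02 and limma adjusted p-values of 0.085 to 0.133. Their mean log2 value per library was 6.93 to 7.59 at 24 h of FR and 6.02 to 6.51 at 48 h. The 2 highest were replicates 3 and 6 at 24 h, which are also the libraries with fewest genes at that time, and the part of this in the result was not tested. Replicate 3 at 48 h, with the fewest genes of its group at 1 M reads (17772), gave 6.10. WL libraries gave 6.46 to 6.65 at 24 h and 6.50 to 6.84 at 48 h. All of them lay below the FR 24 h libraries, and the lowest WL library of each time lay inside the FR 48 h range. FR libraries gave 6.49 to 6.90 at 6 h and 6.81 to 7.39 at 30 h. The highest at 30 h was replicate 3, which had fewer genes at 1 M reads (17197) than any of the 11 libraries compared.

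The same genes had other changes elsewhere, which are given as values since the members were chosen for their fall under FR. In Moneymaker WL their log2 fold changes from 24 to 48 h ran from -0.17 to 0.72 with a median of 0.05. With the label-contrary WL libraries left out the median was -0.01, from 2 libraries (replicates 7 and 8) against 3. In M82, with the libraries of both cultivars' markers or contrary label named above, the median was 0.07 under FR and 0.39 under WL. From 6 to 30 h of FR in Moneymaker, 13 of the 14 had a positive log2 fold change, with a median of 0.43. The part of 30 h replicate 3, the library with few genes, in this was not tested. The difference between the FR and WL changes was negative for all 14, with a median of -1.07, and limma adjusted p-values of 0.054 to 0.96.

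**Figure D4:**
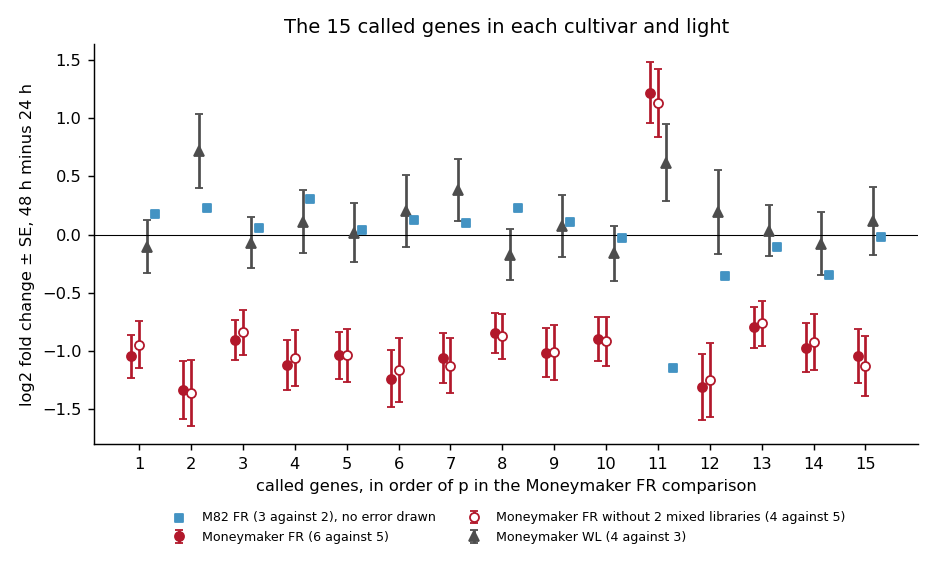
Log2 fold change from 24 to 48 h (vertical axis) of the 15 called genes in order of p (horizontal axis), in Moneymaker FR with all libraries and without the mixed pair, in Moneymaker WL (bars are ± SE) and in M82 FR (no error drawn). The 14 fallers lie between -1.33 and -0.80 under FR and between -0.17 and 0.72 under WL.

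In the other 75 libraries the 14 fallers varied together. After group means were removed, their mean pairwise Pearson correlation was 0.37, with 89 of 91 pairs above 0 and a range from -0.20 to 0.89. Over all tested genes, of every level, the mean was 0.01. The fallers have mean levels of 5.64 to 8.91, and other genes of like level were not compared. The points share libraries, depth and batches, and this is a description. By the chromosome number in their identifiers, the fallers lay on 8 chromosomes, with 3 on each of chromosomes 1 and 2, 2 on each of 3 and 9 and 1 on each of 7, 8, 10 and 12. The nearest pair was 5 rows apart in the gene order of the table.

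Far-red genes were then followed through lists called between FR and WL in M82 internodes, which share no library with the Moneymaker samples. The M82 48 h libraries with Moneymaker markers named above were kept in every definition of these lists. So were M82 FR 6 h replicates 1 and 5, with Moneymaker markers at 18.3% and 33.1%. Of the genes lowered by FR in M82, 80 were tested, and 74 of them had a positive log2 fold change from 24 to 48 h in Moneymaker FR. Their median was 0.46, with quartiles of 0.21 and 0.90 and a range of -1.15 to 2.25, beside 0.03 for all genes. At an unadjusted p below 0.05, 27 of the 80 were higher and 1 was lower, 33.8% higher against 4.16% of all genes, and 0 were called after adjustment. For 5 members the groups did not overlap, all higher, beside 0.441% of all genes. Without the mixed libraries the median was 0.51 and 18 were higher at an unadjusted p below 0.05, beside 3.32% of all genes. When libraries contrary to their labels were kept out of the definition, the list held 83 genes, the median was 0.46 and 29 were higher.

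By library, the 80 genes had a mean log2 value of 4.57, 4.03, 4.62, 4.41 and 3.97 in 24 h replicates 1, 3, 4, 5 and 6. At 48 h the 6 libraries gave 4.64 to 5.09, with a mean of 4.86 ± 0.18 (SD, n = 6) against 4.32 ± 0.30 at 24 h (SD, n = 5). The groups did not overlap, by a margin of less than 0.02. Replicates 3 and 6 at 24 h, with the fewest genes, were again the most distant, and without them the median fell to 0.22. WL libraries lay higher than both, at 5.57 to 5.75 at 24 h and 5.44 to 5.72 at 48 h. The median FR effect on these genes in Moneymaker, FR minus WL, was -0.93 at 24 h, with 80 of 80 genes below WL, and -0.59 at 48 h, with 73 of 80 below WL. Under WL the median change from 24 to 48 h was -0.11, and 0.01 with the label-contrary libraries left out. With them left out the median FR effect at 48 h was -0.67, again with 73 of 80 below WL. From 6 to 30 h of FR the median change was -0.30. FR libraries at 6 and 30 h gave 4.32 to 4.57 and 3.74 to 4.41, with 30 h replicate 3, the library with few genes, lowest. In M82 FR, whose libraries also defined the list, the median change of the 80 genes from 24 to 48 h was -0.17.

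Genes raised by FR in M82 had a smaller median change, below 0 with limma and 0.003 with edgeR. Of the 56 tested, 21 had a positive log2 fold change and the median was -0.09, or -0.18 without the mixed libraries. At an unadjusted p below 0.05, 10 were lower, 17.9% against 3.84% of all genes, and 1 was higher. Of the 56 genes, 3 were among the 14 fallers, which are 0.0736% of all genes. When libraries contrary to their labels were kept out of the definition, the list held 51 genes and 1 faller. Its median was -0.09, and 6 were lower at an unadjusted p below 0.05 (11.8%) and 1 higher. By library, the 56 genes had a mean log2 value of 4.93 to 5.48 at 24 h and 4.70 to 5.47 at 48 h. These groups overlapped, and WL libraries gave 3.93 to 4.01 and 3.77 to 4.20. The median FR effect was 1.35 at 24 h and 1.27 at 48 h, or 1.14 with the label-contrary WL libraries left out. In M82 FR, whose libraries also defined the list, the median change from 24 to 48 h was 0.47. Whether the FR effect differed between the times for a single gene is the test of the FR and WL changes given below.

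**Figure D5:**
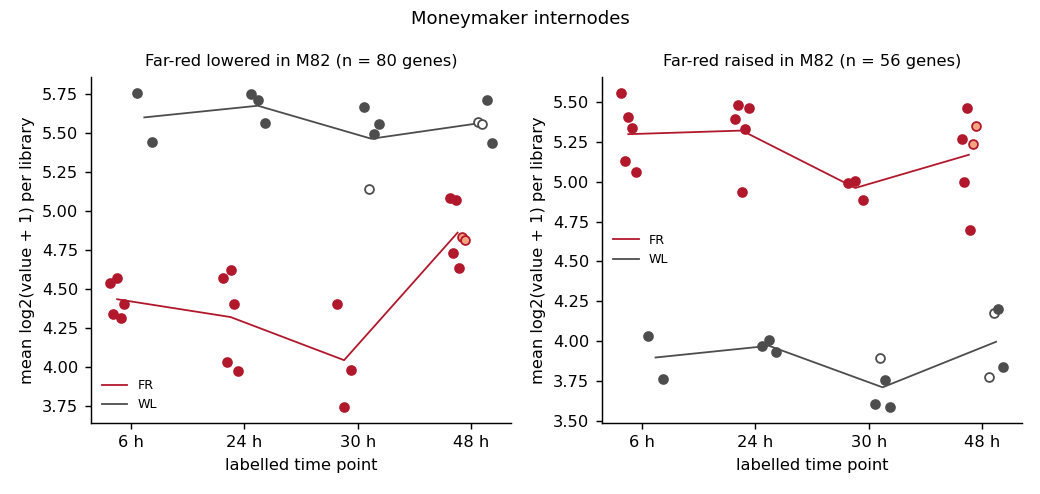
Mean log2(value + 1) per Moneymaker internode library (vertical axis) of the genes lowered (left) and raised (right) by FR in M82 internodes, by labelled time (horizontal axis), FR in red and WL in grey, lines joining group means, pale points being the mixed libraries and open points those against a label. On the left the FR libraries at 48 h, 4.64 to 5.09, lie above those at 24 h and below the WL libraries; on the right the FR groups at 24 and 48 h overlap.

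Lists for clock and tissue had medians between those of both far-red lists, and their counts at an unadjusted p below 0.05 stand beside 4.16% higher and 3.84% lower over all genes. The 1004 genes that M82 expresses more at 24 and 48 h than at 6 and 30 h had a median log2 fold change of 0.21, with 785 positive, 112 higher (11.2%) and 8 lower (0.797%), and 0 called. The 725 genes of the opposite phase had a median of 0.06, with 67 higher (9.24%) and 101 lower (13.9%). They held 5 of the fallers, which are 0.0736% of all genes, and the gene that rose, which is 0.00526%. With label-contrary libraries kept out of the definition, this list held 629 genes and 3 of the fallers, with a median of 0.12. Of the 629, 67 were higher (10.7%) and 61 lower (9.7%), so the larger share of lower genes was not kept. The list of 1004 became 866 genes, with 89 higher (10.3%) and 8 lower (0.924%). The clock score of 48 h replicate 5 was -2.14, and the other 10 libraries lay between -3.83 and -3.07. The 469 genes lower in M82 pith, the innermost tissue of the internode, than in whole internodes had a median of 0.17, with 42 higher (8.96%) and 4 lower (0.853%). The 51 genes higher in pith had a median of 0.16, with 3 higher (5.88%) and 0 lower. With label-contrary libraries kept out of the definition, the lists lower and higher in pith held 479 and 143 genes, with medians of 0.16 and 0.17. Without the mixed libraries the medians of the 469 and 51 genes were 0.14 and 0.21. Genes of inner and outer tissue thus had medians of one sign.

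The same step elsewhere gave almost no calls. In Moneymaker WL limma called 0 genes, with 434 at an unadjusted p below 0.05 (0.836% of genes higher), 0 by edgeR and 3 by DESeq2. In M82 FR limma called 0 genes lower and 1 higher (747 at an unadjusted p below 0.05), and in M82 WL 0 genes (388, with 0 by edgeR and by DESeq2). From 6 to 30 h of FR in Moneymaker it called 2 genes lower and 0 higher (0.0105%, with 1275 at an unadjusted p below 0.05). Without 30 h replicate 3, the library with few genes, 1 gene was called and 372 had an unadjusted p below 0.05. All these comparisons hold fewer libraries, and their median SE with all libraries was 0.40 to 0.49 against 0.33.

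Tests of the differences themselves called 0 genes. The change under FR minus that under WL gave 942 genes at an unadjusted p below 0.05, 1 call by edgeR and 3 by DESeq2. The change in Moneymaker minus that in M82 under FR gave 815 genes, a smallest limma adjusted p of 0.065, 0 calls by edgeR and 2 by DESeq2. A change particular to FR or to Moneymaker was therefore not shown for any single gene by limma, nor were the changes shown to be alike, with a median SE of 0.53 and 0.59. Across the 19029 genes, which are not independent, log2 fold changes from 24 to 48 h of FR correlated with those from 6 to 30 h of FR at Pearson's r of -0.33 (Spearman's rho -0.29). The 24 h group holds replicates 3 and 6 and the 30 h group replicate 3, all with few genes. Their part in this correlation was not tested. With the change in Moneymaker WL r was -0.07, and with that in M82 FR 0.16, none of these pairs sharing a library.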

How the data were processed

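The authors deposited 1 signal value per gene and library: read counts scaled by 1 factor per library. The submitters' processing notes name FastQC, Trim Galore, STAR and featureCounts. For versions, build, annotation and strand, the sources used here give nothing, so overlapping or near-identical genes cannot be told apart. Whole reads were recovered for 85 libraries: 100% of nonzero values below 2000 reads were whole within 0.02 of a read. Per the labels' protocols, polyA RNA was captured and primed at random.

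The 19029 genes whose mean value reached 1 were tested on log2(value + 1), which understates the change of low genes, with limma 3.58.1 (trend, robust) in R 4.3.3, in 1 fit of 86 libraries with a mean for each group. Adjusted p-values are Benjamini-Hochberg over these genes. Alternatives used edgeR 4.0.16 and DESeq2 1.42.0 (its filter tuned to 0.05) on the recovered reads of 85 libraries, as listed in the closing section. The library left out of these fits was M82 FR 48 h pith replicate 1. The limma, edgeR and DESeq2 fits of the main comparison were tested on simulated counts, and the other steps were not.

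The comparison, gene lists and rules were chosen with earlier results of these data known. Named genes were the 2 of smallest p per direction among called genes that changed 2-fold or more and averaged 1 or more on the log2 scale, filled up by the next smallest p. Lists by gene description could not be applied. The lists from M82 were called in the same fit. Per the series design, plants of a batch share a replicate number: deviations of the same numbers at 24 and 48 h correlated at 0.361, 0.0799, -0.191 and 0.220 for replicates 1, 3, 4 and 5.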

Additional observations from a re-analysis of the deposited data

Results flagged for a closer look

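Of 29 groups of values examined for a sample far from the others, 3 held one, and chance gives about 1 in 20. The library labelled Moneymaker WL 48 h replicate 3, which expresses M82 marker genes, had a value of 83.2 for Solyc01g111420, against 50.7 to 55.0 in the other 3 libraries of its group. The genes raised by FR in M82 had a mean log2 value of 4.93 in Moneymaker FR 24 h replicate 4, below the other 4 libraries at 5.33 to 5.48. Moneymaker FR 48 h replicate 4 held 22.1 M reads, against at most 4.74 M in the other 5, and without it 16 genes were called in place of 15.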

How the results depend on the processing

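The 15 calls (14 lower, 1 higher) depended on the libraries and the tool, while all 15 genes had the same sign under every alternative. The count was 15 with TMM size factors and 16 with no filter. It was 27 (22 lower, 5 higher) with a pseudocount of 0.25, 0 when only the 11 libraries were fitted (1764 at an unadjusted p below 0.05), 23 (21 and 2) with edgeR and 89 (69 and 20) with DESeq2, or 72 (52 and 20) with its filter at the default level, the value seen first. Without the series' libraries against a label it was 47 (38 and 9), without the mixed libraries 0, without both 2, and without 24 h replicates 3 and 6 it was 0. Leaving out single libraries gave 2 to 38: at 24 h 38 without replicate 1, 2 without replicate 3 and 4 without replicate 6, and at 48 h 7, 34, 23 and 9 without replicates 3, 5, 7 and 8. With the replicate number of the title as a block 19 genes were called, 10 of the 15 among them, and with the sample code number as a block 42 (36 and 6). The causes were not tested.

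For M82 FR the 1 call became 0 with the block and with edgeR, 2 with DESeq2 and 0 to 43 without single libraries. For 6 to 30 h the 2 calls became 1 with the block, 0 with edgeR and 1 to 69 without single libraries. For Moneymaker WL DESeq2 gave 3. The FR and WL difference gave 1 with edgeR, 3 with DESeq2 and 0 to 1 without single libraries, and the cultivar difference 1 without libraries against a label, 2 with DESeq2 and 0 to 45 without single libraries. The block changed no other count by more than 1.5 times.

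The median of the genes lowered by FR stayed between 0.22 and 0.54 and that of the genes raised between -0.24 and 0.003. Alternatives without 24 h replicates 3 and 6, without both sets of libraries, by the default DESeq2 filter, by lists or WL groups without label-contrary libraries and without single libraries of the other comparisons were added after seeing the data. Depths of 1.06 to 22.1 M reads and 11 libraries limit what could be detected.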

Other observations

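Genes whose identifiers place them on chromosome 0, the sequence not anchored to a chromosome, were picked out after their values were seen. Some of these identifiers had identical or nearly identical values, so the counts and shares below hold the same signal more than once. How many separate signals they hold was not counted. Of 313 tested, 303 had a negative log2 fold change from 24 to 48 h of FR, with a median of -0.81, or -0.83 without the mixed libraries. At an unadjusted p below 0.05, 28 were lower, 8.95% against 3.84% of all genes, and 0 higher, and limma called 0 after adjustment. Without 24 h replicates 3 and 6 the median was -0.97 and 4 were lower, and without the mixed libraries 39 were lower. Single libraries differed widely and the groups overlapped: these genes held 2.51% of the summed value in 24 h replicate 4 and 1.85% in 48 h replicate 5, against 0.322% in 48 h replicate 4. In Moneymaker WL the median change was 0.34 in the other direction.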
